A study of Homo sapiens with 10 samples.

Results

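The 4 MCF10A-TRAM2 libraries A, B, C and D, of 10 mRNA sequencing libraries in the series, were compared among themselves, as A and B against C and D. They were chosen by title and sequencing run, with no measured value: the first run read A and B and the second read the others, as the run numbers of the deposited tables show. The question was which gene programmes varied between cultures of cells that carried the same TRAM2 vector, and whether they followed the amount of TRAM2. The 4 MCF10A-control libraries, A and B from the first run and C and D from the second, measured the difference that went with the run.

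MCF10A is an established, non-transformed human mammary epithelial cell line, grown here in medium with horse serum, EGF, insulin and hydrocortisone. MCF10A-TRAM2 cells were transduced with a lentiviral vector holding the TRAM2 open reading frame behind a CMV promoter and a puromycin resistance gene, MCF10A-control cells with the empty vector. The remaining 2 libraries came from cells with YAP5SA, a constitutively active form of the transcriptional co-activator YAP. All cells went through antibiotic selection and were harvested below full confluence. Whether cultures A to D were separate transductions or dishes of a single transduced population was not stated in the labels or the methods, so p-values measure only the spread between these libraries, which may be technical. Within the TRAM2 cells alone, the difference between the sets and the run cannot be told apart.

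TRAM2 is a multi-pass membrane protein of the endoplasmic reticulum. It is related to TRAM1, which sits beside the Sec61 channel through which secreted proteins enter the endoplasmic reticulum, and it has been linked to the making of type I collagen. Mammary epithelial cells can take on mesenchymal traits, with more FN1 (fibronectin, a matrix glycoprotein) and VIM (vimentin, an intermediate filament protein). They can also take on squamous traits, with more IVL (involucrin, a protein cross-linked into the envelope of differentiating squamous cells).

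Each MCF10A-TRAM2 library held between 13170439 and 16314438 estimated read counts, and each control library between 8489854 and 11662636. In genes with whole counts, control A and C differed by no more than the sampling noise of their counts can give (chi-square per degree of freedom 1.02 over 3805 genes, chi-square p = 0.245), and control B and D by little more (1.04 over 3886 genes, p = 0.0408). With other genes included, both pairs exceeded that noise, at 1.23 for A and C (10883 genes, chi-square p = 3.88e-56) and 1.22 for B and D (10563 genes, p = 6.03e-52). The remaining control pairs then lay at 1.42 to 1.49. Control A with C, and B with D, may each be a single library read in both runs. The control comparison would then hold the cells the same between runs and rest on 2 samples. Of 10 fibroblast markers 3 passed the filter on low counts, with a summed level of 9.73 to 13.3 CPM (counts scaled to the library total) in the TRAM2 libraries and of 9.28 to 10.1 in the controls. Of 8 endothelial markers 2 passed (12 to 17.4 CPM), and of 8 leukocyte markers 2 (36.3 to 48.1 CPM). The part of such cells in the results was not tested.

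Counted by sampling noise, the TRAM2 cultures differed from each other more than the control libraries did. Chi-square per degree of freedom was 1.89 for C and D, 2.62 for A and C, 3.64 for A and D, 5.59 for B and C, 5.72 for A and B, and 6.28 for B and D, against 1.02 to 1.21 over the 6 control pairs, which were less deep. The 3 largest values all involved culture B, and A was further from B, of its own run, than from C or D. Few genes differed by a large fold. Of protein-coding genes with a mean of at least 5 CPM, between 2 (C and D) and 19 (B and C) were more than 2-fold apart, and between 3 and 14 in the control pairs. At a distance of 0.5 on the log2 scale, 44 genes separated C and D, 109 separated A and C, and 292 separated A and B, against 80 to 112 in the control pairs. The first principal component of the 4 TRAM2 libraries (39.0% of the variance) had A at 36.0, C at 6.9, D at -13.1 and B at -29.9. It thus set A against B, and the second (35.0%) was the one with both first-run cultures on one side, at -13.5 and -28.6, and C and D on the other, at 9.1 and 33.0.

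**Figure D1:**
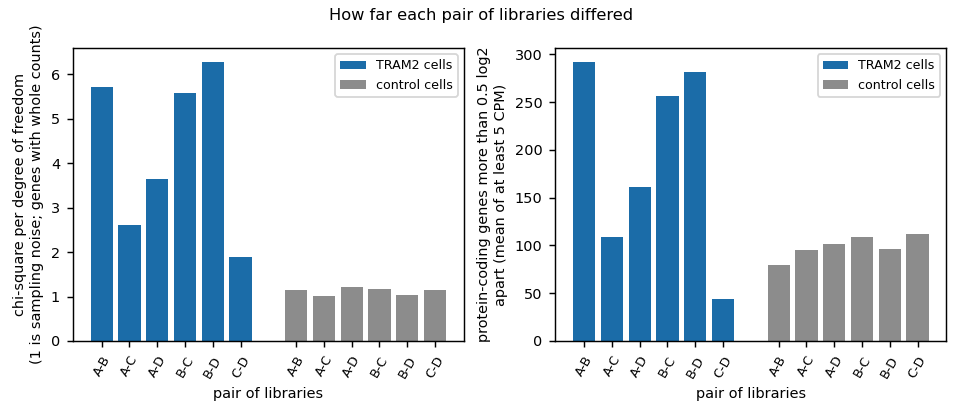
Distance between each pair of libraries within the TRAM2 and the control group, as chi-square per degree of freedom over genes with whole counts and as the number of protein-coding genes more than 0.5 log2 apart. The TRAM2 pairs run from 1.89 to 6.28 on the first measure, all above the control pairs, and from 44 genes (C and D) to 292 (A and B) on the second.

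The TRAM2 transcript was high in every TRAM2 culture and uneven between them. It stood at 392 CPM in A, 617 in B, 250 in C and 461 in D, against 26.7, 28, 30.5 and 29.4 CPM in control A to D. The order was thus B, D, A and C, and the sets overlapped, since A of the first set was below D of the second. The mean was 430 CPM ± 150 (SD, n = 4), which was 15 times the control mean, and the highest culture had 2.46 times the level of the lowest. The set difference on the log2 scale was 0.50 ± 0.49 (SE, adjusted p = 0.93), by edgeR's quasi-likelihood test with Benjamini-Hochberg adjustment, the test behind each adjusted p given here unless another is named.

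Few genes passed that test between the sets. Of 15049 genes tested, 3 were called higher and 1 lower in A and B, at an adjusted p under 0.05 and a log2 difference over 0.5, which is 0.0266% of the genes. At an unadjusted p under 0.05, 497 genes (3.3%) were higher and 388 (2.58%) lower. A and B both lay above C and D in 18.9% of the genes and both below in 17.4%. The called genes were FN1, IVL, KLK10 and EIF1P3. The number of calls depended on single cultures, with 368 without A, 169 without B, 28 without C and 2 without D, each from a fit with 1 culture in a set that is assumed to vary like the other pair.

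FN1 was higher in A and B. Its level was 640 CPM in A, 674 in B, 408 in C and 402 in D, and 366, 351, 356 and 352 CPM in control A to D. The sets did not overlap, and all 4 TRAM2 cultures lay above the 4 control libraries, C and D by the smaller distance. The mean of 657 CPM ± 24 (SD, n = 2) in A and B was 1.62 times that of 405 CPM ± 4.5 (SD, n = 2) in C and D, and the log2 difference was 0.69 ± 0.07 (SE, adjusted p = 0.015). The control sets differed by 0.01 ± 0.03 (SE), and the TRAM2 set difference minus the control set difference was 0.69 ± 0.07 (SE, adjusted p = 0.0019). Every such difference given here took the control libraries as separate samples. The fit pooled their smaller spread with that of the TRAM2 cultures, so its adjusted p may be too small. The call between TRAM2 sets was lost without culture D (0.68, adjusted p = 0.19), with counts scaled for transcript length (0.63, adjusted p = 0.35) and without the robust option of the fit (adjusted p = 0.09), and that against the control sets without control A, B or D (adjusted p = 0.068, 0.09 and 0.074). FN1 did not take the order of TRAM2 across the cultures: D, which came next to B in TRAM2, had the least FN1. A gene called for a split of A and B from C and D could hardly take that order.

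IVL was also higher in A and B. It stood at 37.5 CPM in A, 45.4 in B, 21.8 in C and 21.1 in D, and at 21 to 23.1 CPM in the control libraries. C and D sat inside the control range, and A and B above it. The set means of 41.4 CPM ± 5.6 and 21.5 CPM ± 0.52 (SD, n = 2 each) differed by 0.95 ± 0.11 (SE, adjusted p = 0.033) on the log2 scale, and the difference against the control sets was 0.89 ± 0.15 (SE, adjusted p = 0.091). The call was lost without culture D (0.92, adjusted p = 0.12), with length-scaled counts (adjusted p = 0.53) and without the robust option (adjusted p = 0.13). Of the 4 called genes, IVL alone had whole estimated counts in every library, which is what reads assigned to a single gene give.

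KLK10, a secreted serine protease of the kallikrein family, was lower in A and B. Its level was 49.4 CPM in A, 44.2 in B, 73.4 in C and 80.4 in D. All 4 cultures lay below the control libraries, at 89 to 99.9 CPM, and A and B lay furthest below. The log2 difference between the sets was -0.72 ± 0.08 (SE, adjusted p = 0.034), beside 0.04 ± 0.05 (SE) between the control sets, and the difference of the differences was -0.76 ± 0.11 (SE, adjusted p = 0.044). The call was lost without culture D (-0.65, adjusted p = 0.16), with length-scaled counts (adjusted p = 0.83) and without the robust option (adjusted p = 0.13), and the difference of the differences lost its call with any single control library left out (adjusted p from 0.12 to 0.25) and without TRAM2 C (0.052) or D (0.27).

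EIF1P3, a pseudogene of the translation factor gene EIF1, went with the run. It held 45 counts in TRAM2 A, 63 in B and 0 in C and D, and 53 in control A, 17 in control B and 0 in control C and D. Of the TRAM2 and control libraries, every first-run library had counts and no second-run library had any. Its adjusted p was 0.015 between the TRAM2 sets, 0.018 between the control sets and 1 for the difference between them, and its counts are uncertain because reads of near-identical copies can be assigned to any of them.

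**Figure D2:**
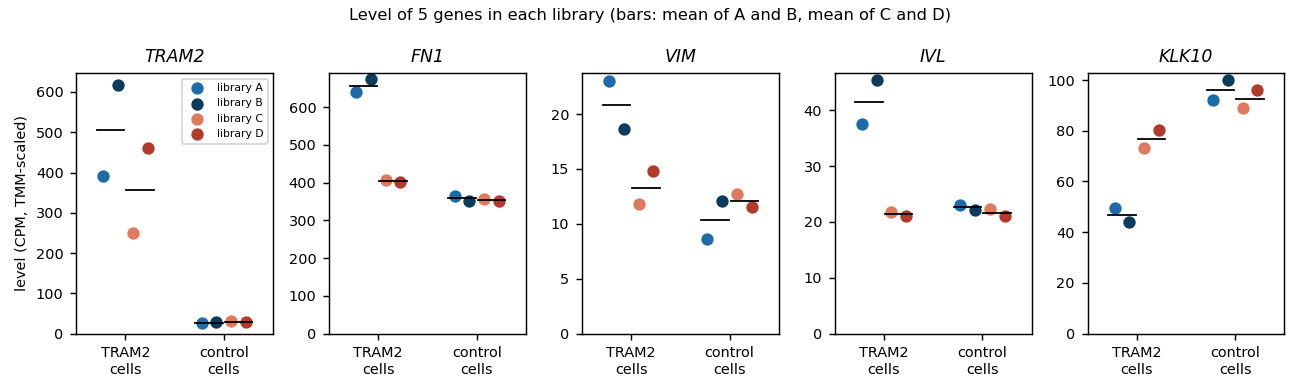
Level of TRAM2, FN1, VIM, IVL and KLK10 in CPM in each MCF10A-TRAM2 and MCF10A-control library (points) with the means of A and B and of C and D (bars). FN1 and IVL are higher and KLK10 lower in TRAM2 A and B than in C and D with no overlap, TRAM2 overlaps between the sets, and the control sets lie close together.

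The promoters of the called protein-coding genes are shown for what lies at their annotated starts, from 250 bases before to 50 after (RefSeq, GRCh38.p14, 5′ to 3′ along the gene). Capitals mark matches on either strand to the AP-1 letters TGANTCA, the CRE letters TGACGTCA, the TEAD letters CATTCC or the TATA letters TATAAA.
FN1, chr2:215436019-215436318, minus strand: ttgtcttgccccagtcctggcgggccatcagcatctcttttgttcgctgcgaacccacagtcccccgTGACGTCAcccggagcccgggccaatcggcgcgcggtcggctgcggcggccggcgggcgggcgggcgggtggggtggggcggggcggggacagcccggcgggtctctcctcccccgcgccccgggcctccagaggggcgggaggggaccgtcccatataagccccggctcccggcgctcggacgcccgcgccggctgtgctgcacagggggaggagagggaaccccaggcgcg
IVL, chr1:152908296-152908595, plus strand: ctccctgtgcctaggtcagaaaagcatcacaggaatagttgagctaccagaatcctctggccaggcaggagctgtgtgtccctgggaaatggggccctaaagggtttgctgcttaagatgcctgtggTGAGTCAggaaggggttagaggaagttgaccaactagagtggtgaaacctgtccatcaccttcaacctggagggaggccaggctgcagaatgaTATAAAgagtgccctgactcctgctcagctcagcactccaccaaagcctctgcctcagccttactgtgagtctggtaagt
KLK10, chr19:51019660-51019959, minus strand: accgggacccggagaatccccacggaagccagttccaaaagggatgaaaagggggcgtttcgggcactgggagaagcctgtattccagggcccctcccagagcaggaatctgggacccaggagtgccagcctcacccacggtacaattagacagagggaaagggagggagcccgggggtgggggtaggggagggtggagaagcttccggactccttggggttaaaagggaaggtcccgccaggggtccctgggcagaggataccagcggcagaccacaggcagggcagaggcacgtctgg
FN1 held a CRE match 183 bases before the start, and IVL held an AP-1 match 123 bases before it and a TATA match 30 bases before it, with no overlap between matches. KLK10 held none of the letters in either of its 2 annotated windows, of which the first is printed. Of 35116 promoter windows of this length, 7.71% held the AP-1 letters, 1.85% the CRE, 14% the TEAD and 11.5% the TATA letters. The called genes had no match in common, and a match describes the sequence only.

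VIM was not called. It stood at 23 CPM in A, 18.6 in B, 11.8 in C and 14.8 in D, against 8.59, 12.1, 12.7 and 11.5 CPM in control A to D. A and B lay above C and D. Cultures A, B and D lay above every control library, and C lay inside the control range. The set difference was 0.64 ± 0.15 (SE, adjusted p = 0.48), and lay between 0.48 and 0.81 with a single culture left out. FSTL1, a secreted glycoprotein, was at 166, 206, 180 and 165 CPM in A to D (0.10 ± 0.10, SE, adjusted p = 0.92). P3H1, a prolyl hydroxylase that modifies collagen in the endoplasmic reticulum, was at 13.5, 16, 13.4 and 12.6 CPM (0.18 ± 0.13, SE, adjusted p = 0.92). In both B was the highest culture.

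Among mesenchymal genes FN1 passed the threshold and others did not. Of 25 in the list 20 were tested and 1, FN1, was called. At an unadjusted p under 0.05, 5 were higher in A and B (background 3.3%) and 1 lower (background 2.58%), and 12 of the 20 had both A and B above C and D (background 18.9%). The median log2 difference was 0.24, beside 0.003 over all genes and -0.04 for the list between the control sets. The median between the TRAM2 sets was 0.29 without A, 0.24 without B, 0.29 without C and 0.16 without D. The genes given next, and in later paragraphs those that are neither called nor among the most abundant of a list, were chosen after their values were seen.

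FBN1, the microfibril protein fibrillin, was at 51.8 CPM in A, 68.1 in B, 42.5 in C and 41.8 in D, and at 33.4 to 36.6 CPM in the controls (0.51 ± 0.12, SE, adjusted p = 0.61). LOX, which cross-links collagen, was at 53.8, 58.7, 40.4 and 40.9 CPM in A to D and at 38.6 to 41.4 in the controls (0.47 ± 0.08, SE, adjusted p = 0.13). In LOX, C and D were inside the control range, and in FBN1 all 4 cultures were above it. POSTN, the matrix protein periostin, went the other way, at 11.7, 8.99, 15.2 and 18.1 CPM (-0.69 ± 0.16, SE, adjusted p = 0.46). A, B and C lay below its control range of 16.9 to 19.5 CPM and D inside it.

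TIMP1, S1PR3, LAMA4 and H1F0 were among the genes that were not called. TIMP1, an inhibitor of metalloproteases, was at 92.7, 111, 66.5 and 70.4 CPM in A to D and 54 to 59.2 in the controls (0.57 ± 0.09, SE, adjusted p = 0.13). S1PR3, a receptor for sphingosine 1-phosphate, was at 37.3, 40.7, 25.8 and 27.2 CPM (0.55 ± 0.09, SE, adjusted p = 0.13), and LAMA4, a laminin chain, at 53.8, 56.3, 41.7 and 39.6 (0.44 ± 0.08, SE, adjusted p = 0.17). In these 3 genes every TRAM2 culture lay above every control library, and A and B above C and D. H1F0, a linker histone, was lower in A and B, at 88.8, 105, 135 and 139 CPM against 94 to 101 in the controls (-0.51 ± 0.08, SE, adjusted p = 0.13). There A lay below the control range and B, C and D above it. DESeq2 called 12 genes between the sets, TIMP1 among them (adjusted p = 0.0094), and an edgeR fit over 8 samples, with each of the near-identical control pairs summed, called 10.

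As a list, collagen and other matrix genes did not share the FN1 pattern. Both A and B were above C and D in 2 of 17 (background 18.9%) and below in 2 (background 17.4%). Those above were COL6A1 and COL6A2, both collagen chains. COL6A1 was at 10.8, 13.8, 9.1 and 7.27 CPM in A to D and 6.34 to 7.08 in the controls (0.59 ± 0.17, SE, adjusted p = 0.67). COL6A2 was at 1.79, 2.51, 1.46 and 1.2 CPM. None of the 17 fibrillar collagen and matrix genes tested was called by edgeR or DESeq2, 1 was higher (background 3.3%) and 1 lower (background 2.58%) at an unadjusted p under 0.05, and their median log2 difference was 0.01. THBS1 (thrombospondin) was at 2340, 2500, 2510 and 2300 CPM and TGFBI, a matrix protein induced by TGF-beta, at 789, 869, 961 and 855, and the sets overlapped in both. Of 20 enzymes that modify collagen no gene passed either tool, 2 were higher at an unadjusted p under 0.05 (background 3.3%), and the median was 0.05. P4HB, a subunit of the collagen prolyl 4-hydroxylases, was at 381, 398, 385 and 377 CPM.

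The machinery that TRAM2 belongs to differed little in size. None of 36 translocon and signal peptide genes passed with edgeR or DESeq2, while 2 were higher at an unadjusted p under 0.05 (background 3.3%). Both A and B were above C and D in 18 of 36 (background 18.9%) and below in 2 (background 17.4%), with a median log2 difference of 0.04. TRAM1 was at 138, 143, 120 and 125 CPM, and at 115 to 121 in the controls (0.20 ± 0.06, SE, adjusted p = 0.75). CANX and CALR, lectin chaperones of the endoplasmic reticulum, were at 1300, 1180, 1230 and 1280 CPM and at 1240, 1140, 1260 and 1220, with no separation of the sets. Of 22 unfolded protein response genes, 3 were higher at an unadjusted p under 0.05 (background 3.3%) and none was called by either tool. HSPA5, the chaperone BiP, was at 704, 637, 644 and 594 CPM. Of 27 amino acid response genes under ATF4, 2 were higher (background 3.3%) and 4 lower (background 2.58%), and none was called by either tool.

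Of the lists with at least 10 genes tested, p53 targets had the largest share of members higher in both A and B. p53 is a transcription factor that restrains the cell cycle and promotes cell death, and MDM2, its target, marks it for degradation. None of the 25 targets was called by edgeR or DESeq2. At an unadjusted p under 0.05, 13 of 25 were higher in A and B (background 3.3%) and none lower. Both A and B were above C and D in 22 of 25 (background 18.9%), where the control sets had 3 above and 3 below. The median log2 difference was 0.21 between the TRAM2 sets, -0.01 between the control sets and 0.28 for the difference between them.

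MDM2 was at 291 CPM in A, 294 in B, 242 in C and 235 in D, and at 269 to 280 CPM in the controls (0.29 ± 0.06, SE, adjusted p = 0.4). BBC3, which encodes the cell death protein PUMA, was at 8.82, 8.92, 5.28 and 6 CPM and at 7.66 to 8.66 in the controls (0.65 ± 0.16, SE, adjusted p = 0.54). GADD45A, a gene of growth arrest after DNA damage, was at 40.4, 45.5, 30.3 and 33.9 CPM and at 35.1 to 39.1 in the controls (0.42 ± 0.09, SE, adjusted p = 0.43). In these 3 genes A and B lay above the control range and C and D below it. CDKN1A, the cyclin-dependent kinase inhibitor p21, was at 155, 191, 137 and 132 CPM and at 159 to 171 in the controls (0.35 ± 0.09, SE, adjusted p = 0.67), with B above and the other cultures below the control range. TP53INP1, a stress-induced p53 target, was at 12.3, 14.7, 8.92 and 8.02 CPM (0.67 ± 0.15, SE, adjusted p = 0.42), with C and D inside the control range.

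As a mean over the list in log2 CPM, relative to the 4 TRAM2 cultures, p53 targets stood at 0.08, 0.17, -0.11 and -0.14 in A to D and at 0.04, -0.01, 0.04 and 0.00 in control A to D. The order was B, A, C and D, while TRAM2 took B, D, A and C. The count of 13 was 17 without A, 13 without B, 9 without C and 7 without D, where the share of all genes at that threshold was 9.62%, 5.94%, 2.15% and 1.35%.

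Genes of the G2 and M phases of the cell cycle went the other way. Of 33 tested, 12 were lower in A and B at an unadjusted p under 0.05 (background 2.58%), none was higher, and none was called by edgeR or DESeq2. Both A and B were below C and D in 25 of 33 (background 17.4%). MKI67, the proliferation antigen, was at 1760 CPM in A, 1650 in B, 2000 in C and 2010 in D, and at 1730 to 1800 CPM in the controls (-0.24 ± 0.08, SE, adjusted p = 0.74). TOP2A, a topoisomerase of dividing cells, was at 693, 605, 740 and 731 CPM and at 633 to 647 in the controls (-0.18 ± 0.08, SE, adjusted p = 0.85). In both, C and D lay above the control range and B was the lowest culture. For TOP2A, culture A lay above the control range too. B was lowest in 31 of the 33 genes (background 28.5%), and the list's mean stood at 0.01, -0.19, 0.10 and 0.08 in A to D. The count of 12 was 31 without A, 8 without B, 3 without C and 0 without D, where the share of all genes lower at that threshold was 9.43%, 6.9%, 1.38% and 0.752%. S phase genes did not share the pattern: 2 of 33 were higher (background 3.3%) and 1 lower (background 2.58%), and MCM4, a subunit of the replicative helicase, was at 471, 463, 478 and 471 CPM.

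**Figure D3:**
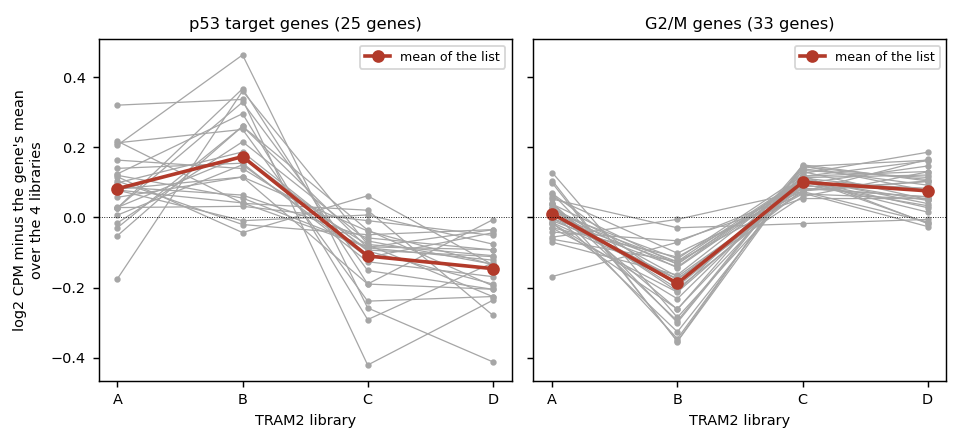
Log2 CPM of each p53 target gene and each G2/M gene in the 4 TRAM2 cultures, relative to the gene's mean over the 4, with the mean of each list in red. From A to D the p53 list runs 0.08, 0.17, -0.11 and -0.14, and the G2/M list 0.01, -0.19, 0.10 and 0.08.

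IVL was the called member of the cornification list. Of 28 genes 16 were tested, 2 were higher (background 3.3%) and 1 lower (background 2.58%) at an unadjusted p under 0.05, and the median log2 difference was 0.19. Both A and B were above C and D in 9 of 16 (background 18.9%). PI3, the protease inhibitor elafin, was at 16.2, 39.5, 13.3 and 10.7 CPM (1.21 ± 0.59, SE, adjusted p = 0.9), and SPRR1B, an envelope protein, at 5.08, 8.64, 5.83 and 7.01 (0.10 ± 0.25, SE, adjusted p = 0.97). In both B was the highest culture. LOR, FLG and TGM3, genes of the fully cornified cell, had no counts in any TRAM2 or control library, which allows up to 3 counts in each.

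Of the kallikrein genes KLK5, KLK6, KLK7, KLK8 and KLK9, none was called. KLK9 was at 0.748, 0.627, 2.37 and 3.22 CPM in A to D and 2.13 to 3.37 in the controls (-2.02 ± 0.38, SE, adjusted p = 0.23). KLK5 was at 147, 140, 170 and 186 CPM and 222 to 250 in the controls (-0.31 ± 0.07, SE, adjusted p = 0.46). In both, A and B were below C and D. KLK7, at 33.7, 47.4, 31.9 and 43.2 CPM (0.11 ± 0.23, SE, adjusted p = 0.97), and KLK8, at 11.7, 7.59, 11.8 and 12.8 (-0.36 ± 0.19, SE, adjusted p = 0.89), were not called. KLK5, KLK7, KLK8 and KLK10 lay below every control library in all 4 cultures. KLK6 and KLK9 did not. KLK6 was at 15.3, 12.3, 16.7 and 17.9 CPM and 17 to 21.2 in the controls (-0.34 ± 0.13, SE, adjusted p = 0.84), with D inside the control range.

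Culture B stood furthest from the others. It was the highest or lowest of the 4 in 60.1% of the genes tested, against 53.3% for A, 47.7% for D and 38.9% for C. Of 10042 protein-coding genes with a mean of at least 5 CPM, B lay more than 0.5 log2 from all the others in 85, A in 25, D in 11 and C in 8. B was above the others in 67 of its genes and below in 18. The genes that follow were picked for the width of their gap in B, so the gap itself is a description.

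Highest in B was SERPINB2, a serpin of activated epithelial cells, at 8.37 CPM in A, 24.5 in B, 8.49 in C and 5.62 in D, and at 14 to 16 CPM in the controls. Only B lay above the control range, and A, C and D lay below it. KRT14, a basal keratin, was at 62.5, 117, 56.3 and 65.3 CPM, and NDRG1, which responds to low oxygen, at 48.4, 92, 52.2 and 50.7. NEDD9, a scaffold of focal adhesions, was at 8.97, 17.5, 8.25 and 8.53 CPM, and KDELR3, a receptor that returns proteins to the endoplasmic reticulum, at 6.06, 11.8, 6.19 and 5.88. SLC16A4, a membrane transporter, was at 5.31, 12.2, 5.64 and 6.63 CPM, GABARAPL1, an autophagy gene, at 4.56, 7.94, 4.13 and 4.42, and HIST1H2BJ, a histone gene, at 119, 205, 106 and 104. In each of these, A, C and D lay close together and B apart.

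Lowest in B were PADI4, a peptidylarginine deiminase, at 36.6, 18.8, 38.3 and 40.2 CPM in A to D, and SULT1E1, the estrogen sulfotransferase, at 19.3, 11.4, 18.9 and 23.5. AZGP1, a secreted zinc-binding glycoprotein, was at 63.5, 40, 62.1 and 66.3 CPM, and all 4 cultures lay below its control range of 82.9 to 89.7. PWP2, a ribosome biogenesis factor, was at 22.7, 13.7, 26.4 and 21.7 CPM, and SAPCD2 at 101, 66.6, 107 and 104. FAM102B, at 5.91, 3.27, 6.25 and 5.5 CPM, and the homeobox gene HOXA2, at 5.46, 3.34, 6.74 and 5.62, were low throughout. None of the 20 genes picked for B was called between the sets, with adjusted p from 0.88 to 0.93. The pick put B far from A, of its own set, so that test could hardly call them.

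**Figure D4:**
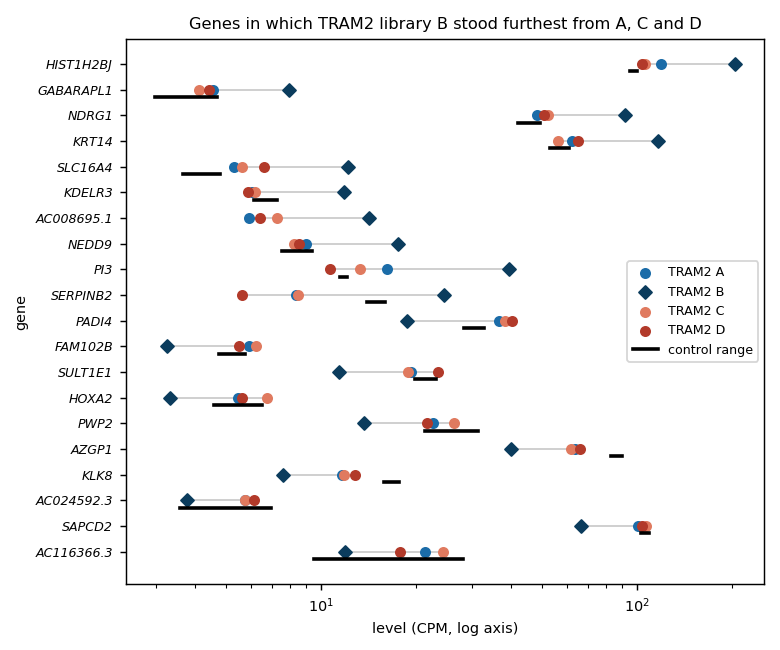
Level in CPM, on a log axis, of the 10 protein-coding genes in which TRAM2 culture B stood furthest above the other cultures and the 10 in which it stood furthest below, with the range of the control libraries as black bars where each had counts. Culture B lies at 24.5 CPM for SERPINB2 and 18.8 for PADI4.

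Whole lists shared the distance of B, which had the highest mean level in 25 of 38 lists and the lowest in 6. Hypoxia and glycolysis genes stood at -0.06, 0.19, -0.04 and -0.08 in A to D, with B highest in 26 of 30 (background 31.6%). VEGFA, an angiogenic factor, was at 164, 243, 194 and 200 CPM and ANGPTL4, a lipase inhibitor, at 210, 336, 238 and 218, while the glycolytic enzymes PKM, at 2230, 2340, 2300 and 2280, and GAPDH, at 2140, 2240, 2240 and 2130, varied little. NF-kB and inflammatory genes stood at -0.06, 0.22, -0.06 and -0.11. Integrin and migration genes stood at -0.10, 0.17, 0.01 and -0.08. B was highest in 17 of 22 of these, in 19 of 25 actin and serum response genes, and in 40 of 52 cytosolic ribosomal protein genes. Ribosome biogenesis genes driven by MYC went the other way, at 0.07, -0.11, 0.04 and 0.00, with B lowest in 26 of 33 (background 28.5%). NCL (nucleolin) was at 3080, 2440, 2910 and 2740 CPM, while MYC was at 173, 166, 173 and 173. None of these lists except the integrin list, through TIMP1 by DESeq2, had a gene called between the sets.

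Of the metallothioneins, small metal-binding proteins, MT2A, MT1E and MT1F were lowest in culture A and MT1X was not. MT2A was at 440, 702, 605 and 615 CPM, with A below and the other cultures above the control range of 506 to 536. MT1E was at 60.1, 80.2, 74.2 and 79.2 CPM, MT1F at 2.17, 3, 3.09 and 3.29 and MT1X at 13, 12.7, 12.7 and 12.6. MT1G had no counts in A, which allows up to 3, and lay at 2.23, 1.21 and 1.01 CPM in B to D. MTF1, the factor that drives metallothionein genes in zinc, was at 30.6, 25.1, 28.1 and 28.7 CPM and the zinc transporter gene SLC39A1 at 67.1, 57.3, 61.7 and 63.2, both highest in A. The mean of all 9 metallothionein and zinc genes stood at -0.51, 0.25, 0.13 and 0.13 in A to D and at -0.24, 0.06, 0.18 and 0.16 in control A to D. Without MT1G it stood at -0.09, 0.04, 0.01 and 0.04 and at 0.01, 0.00, 0.04 and 0.03, so the mean in A rests largely on that gene. Leaving out genes with no counts in a library was chosen after seeing the data.

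Histone genes had a median log2 difference of 0.17 between the TRAM2 sets and of -0.05 between the control sets. Both A and B were above C and D in 2 of 11 (background 18.9%) and below in 3 (background 17.4%). The list's mean, at -0.51, -0.01, 0.25 and 0.26 in TRAM2 A to D and at -0.40, -0.33, 0.23 and 0.29 in control A to D, rests in part on HIST2H2AA3, which held 0 counts in TRAM2 and control A and B. It held 21 counts in TRAM2 C, 34 in TRAM2 D, 15 in control C and 37 in control D. It has a near-identical copy, and its counts are uncertain. Without it the mean stood at -0.29, 0.26, 0.04 and -0.02 in the TRAM2 cultures and at -0.17, -0.09, 0.00 and -0.08 in the controls, and B was then the highest TRAM2 culture.

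No edgeR call fell in the other 36 lists, and DESeq2 called a gene in 4 lists, the mesenchymal, cornification, integrin and histone lists. At an unadjusted p under 0.05, 3.3% of all genes were higher in A and B and 2.58% lower, and YAP/TAZ targets had 3 of 21 higher and 1 lower. In that list both A and B were above C and D in 6 of 21 genes (background 18.9%) and below in 2 (background 17.4%). Its median log2 difference was 0.05. CCN2, a matricellular YAP target, was at 10.8, 10, 7.1 and 6.19 CPM (0.64 ± 0.15, SE, adjusted p = 0.48) and CCN1 at 17.1, 14, 11.9 and 9.35 (0.54 ± 0.16, SE, adjusted p = 0.67). Both were higher in A and B with no overlap, and both were picked from the list after their values were seen. TGF-beta response genes had 1 of 28 higher and 0 lower, interferon response genes 2 of 24 higher and 0 lower, NRF2 redox genes 1 of 24 higher and 0 lower, and immediate early and AP-1 genes 4 of 27 higher and 0 lower. Epithelial genes had 1 of 29 higher and 4 lower, basal keratinocyte-type genes 0 of 16 higher and 0 lower, and heat shock genes 2 of 15 higher and 0 lower. The keratins KRT8, at 989, 1140, 1120 and 1180 CPM, and KRT7, at 3550, 4320, 4000 and 3900, stayed at high levels in all cultures. EGF receptor ligands and receptors had 1 of 13 higher and 1 lower, cyclin D and CDK inhibitor genes 1 of 10 higher and 1 lower, cholesterol synthesis genes 1 of 24 higher and 0 lower, antigen presentation genes 1 of 15 higher and 0 lower, glucocorticoid response genes 1 of 11 higher and 0 lower and luminal mammary markers 1 of 7 higher and 1 lower. Oxidative phosphorylation genes had a median log2 difference of -0.02 and mitochondrially encoded genes -0.04.

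**Figure D5:**
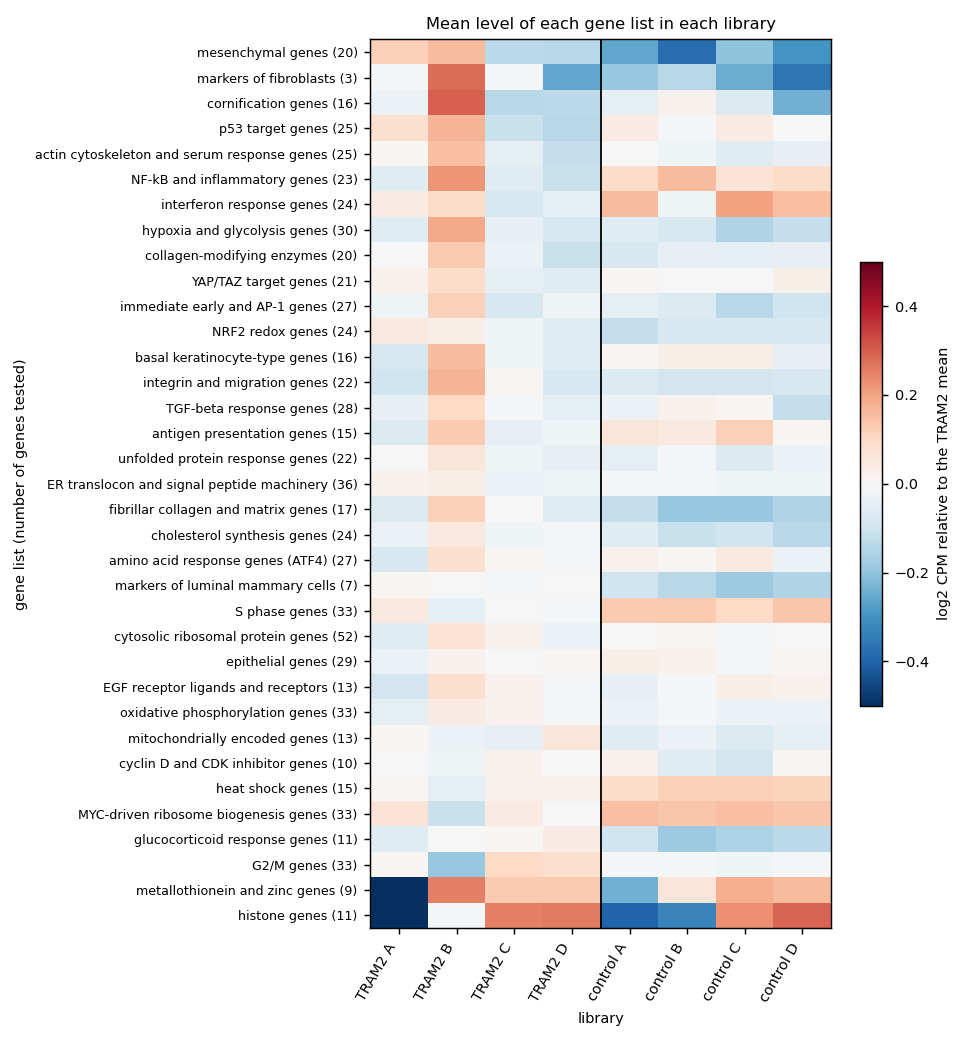
Mean log2 CPM of each gene list with at least 3 tested genes in each TRAM2 and control library, relative to the mean of the 4 TRAM2 libraries (blue low, red high). The p53 list stands at 0.08, 0.17, -0.11 and -0.14 in TRAM2 A to D. The histone mean rests in part on HIST2H2AA3, with no counts in TRAM2 or control A and B, and the metallothionein and zinc mean of TRAM2 A largely on MT1G, with no counts there.

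Programmes were then set beside the TRAM2 level, culture by culture, as a description, since 4 cultures allow no test of a relation. Of the genes tested, 4.08% took the order of TRAM2 (B, D, A, C) and 3.61% its reverse. Of 38 lists, 1 took that order by its mean level, the immediate early and AP-1 genes, and none took the reverse, where 4 cultures have 24 possible orders. That list stood at -0.02, 0.12, -0.08 and -0.02 in A to D. Its levels in A and D are equal as printed, so their order rests on a smaller difference. The p53, mesenchymal and collagen-modifying lists took B, A, C and D, and the G2/M list C, D, A and B. Cultures A and D, with 392 and 461 CPM of TRAM2, fell on different sides for FN1, IVL, KLK10 and the p53 list. These genes were called, and that list brought forward, for a split that puts A and D apart. Their sides therefore cannot show whether programmes follow TRAM2.

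The genes with a profile over the 4 cultures nearest to that of TRAM2 were MUC21, PRAF2, SAA1, KIAA0513, AC098582.1 and KRT14, by Euclidean distance between centred, unit-scaled log2 profiles of protein-coding genes with a mean of at least 5 CPM and a range over 1. MUC21, a cell surface mucin, was nearest, at a distance of 0.232 and 5.23, 10.1, 4 and 6.89 CPM in A to D. A, C and D lay below its control range of 8.51 to 13.3 CPM and B inside it. PRAF2, a membrane protein of vesicle traffic, was at 5.98, 7.03, 3.46 and 5.12 CPM (distance 0.399), SAA1, an acute phase protein, at 4.04, 8.43, 3.64 and 5.43 (0.41), and KIAA0513 at 7.1, 13, 6.31 and 8.21 (0.431). AC098582.1 (0.507) had no counts in control A and B and was called between the control sets, so its counts are uncertain.

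Between the control sets another kind of gene was called. There 28 of 13949 genes were called (0.201%), 15 higher and 13 lower in the first run, of which 10 were protein-coding, 17 had no counts in a whole set and none had whole counts in every library. The smallest adjusted p belonged to AC098582.1, DHFRP1, AC140134.1, AC241585.1 and AC145138.1. DHFRP1, a pseudogene of dihydrofolate reductase, held 132, 96, 226 and 222 counts in control A to D and 130, 253, 106 and 172 in TRAM2 A to D, where the sets overlapped. Among genes with whole counts alone, edgeR called none between the control sets, with 137 at an unadjusted p under 0.05, while DESeq2 on all genes called 11. The count was 18 without control B and 45 without control C.

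The TRAM2 set difference minus the control set difference was called for 3 of 15040 genes (0.0199%), FN1, KLK10 and AC140134.1. AC140134.1 held 18, 35, 38 and 36 counts in TRAM2 A to D and 36, 24, 0 and 0 in control A to D. Its split thus lay in the control libraries and not in the TRAM2 cultures. The count was 0 without control A, B or D (edgeR, with 611, 564 and 621 genes at an unadjusted p under 0.05), 126 without TRAM2 A, 20 without B, 6 without C and 2 without D, and DESeq2 called 7 with all libraries.

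The set difference was last laid beside YAP5SA against control A and B, a first-run comparison that shares no library with it. Of 4260 genes called there, 65.1% had the same sign between TRAM2 A and B and C and D. Among the 414 with an unadjusted p under 0.05 between the TRAM2 sets, 333 (80.4%) had the same sign, as did FN1, at 15100 and 15500 CPM with YAP5SA, IVL, at 83 and 84, and KLK10, at 0.58 and 0.471. TIMP1 and S1PR3 also had the same sign. LAMA4, at 2.65 and 3.53 CPM with YAP5SA, and H1F0, at 116 and 119, had the opposite sign. ANKRD1, a direct YAP target, was at 408 and 418 CPM with YAP5SA and at 0.224, 0.488, 0.182 and 0.19 in TRAM2 A to D. VIM was at 521 and 555 CPM with YAP5SA, far above every TRAM2 culture. MDM2 was at 273 and 283 CPM with YAP5SA, and thus not below the control range, where TRAM2 C and D lay.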

How the data were processed

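Polyadenylated RNA of MCF10A cells was sequenced. The authors removed adapters with cutadapt and quantified transcripts with Salmon, and the deposited tables hold estimated counts (NumReads) and TPM per transcript and library; the software versions, annotation, genome build and strand setting were not stated. Estimated counts were summed per gene and rounded. Genes were filtered with filterByExpr, TMM-scaled, and tested by the robust quasi-likelihood method of edgeR 4.0.16 (R 4.3.3), with Benjamini-Hochberg adjustment over all genes tested. TPM entered only the length-scaled alternative. DESeq2 1.42.0 was an alternative. Log2 CPM used a prior count of 0.5. Whole counts lay within 0.001 of an integer in every library, and pairs were compared by chi-square where a gene's mean reached 50 counts. Groups came from titles. The fits were tested on simulated data. The members, gene lists and tests were chosen with earlier results of these data known. Genes were named if called, if abundant or called in a list, or by their gap or nearness to TRAM2 over the cultures; culture B was taken for the gaps because it tied with D at gaps over 1 and led at 0.5. Adjusted p-values come from edgeR, limited by 2 residual degrees of freedom. Of the list entries, 4 had no row and are not used here. Some results are not reported here.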

Additional observations from a re-analysis of the deposited data

Results flagged for a closer look

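In 83 genes and lists examined over the 4 TRAM2 cultures, the gap of the highest or lowest culture to its neighbour was divided by the whole range and compared with Dixon's 95% critical value, which chance passes in about 1 in 20 groups. Many of these genes were picked for such a gap, so their number carries no weight. Culture B was far above the rest for SERPINB2 (0.848), KRT14 (0.852), NDRG1 (0.913), NEDD9 (0.922), KDELR3 (0.947), GABARAPL1 (0.886) and HIST1H2BJ (0.855), and far below for PADI4 (0.83) and AZGP1 (0.84). By mean level B was far above for the hypoxia and glycolysis list (0.857) and the NF-kB list (0.854), and A far below for the metallothionein and zinc list (0.832), or 0.714 without MT1G, which had no counts in A and whose removal brings the value under the critical one. The TRAM2 and control set differences differed by edgeR's test of the difference itself for FN1 (0.69 on the log2 scale), KLK10 (-0.76) and AC140134.1 (-8.38). The last value depends on the prior count, since control C and D had no counts.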

How the results depend on the processing

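Between the TRAM2 sets 4 genes were called. The count was 12 with DESeq2, 102 with no filter, 2 with length-scaled counts, 0 without the robust option (861 at an unadjusted p under 0.05), 18 with all 10 libraries, 10 with control pairs summed, and 2 to 368 with a library left out. Between the control sets 28 were called, and 11 with DESeq2, 64 with no filter, 0 with length-scaled counts (586 unadjusted), 14 without the robust option, 12 among protein-coding genes, 0 with all 10 libraries (388 unadjusted), 0 among whole-count genes (137 unadjusted), and 18 to 45 with a library left out. For the difference of the differences the 3 calls became 7, 81, 1 and 1 in the first 4 of these settings, 6 among whole-count genes, and 0 to 126 with a library left out. The whole-count setting was chosen after seeing the data, and no cause of these changes was tested.

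With the replicate letter as a block the difference of the differences had 8 calls. TRAM2 and control libraries of the same letter did not deviate together (Pearson's r across genes from 0.008 to 0.067), so the letters were not treated as a pairing. The largest count of genes more than 2-fold apart in a TRAM2 pair went from 19 to 5 at a minimum of 20 CPM. The number of lists in the order of TRAM2 was 1 by mean, by median, with another scaling, and among members with a count in every library, a setting also chosen after seeing the data. No tested value changed direction past its threshold.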
